A study of Homo sapiens with 20 samples.

Results

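TRIB1, TRIB2 and TRIB3 are the 3 Tribbles pseudokinase genes, and they were followed here in RNA recovered with the RNA-binding protein IGF2BP3. They were taken from a table of 19962 genes by their identifiers (ENSG00000173334, ENSG00000071575 and ENSG00000101255, in that order), and all 3 passed the filter on low counts in each comparison. The members were chosen by their measured counts after 4 h of tunicamycin, where TRIB1 was lower and TRIB3 higher than in the vehicle, so that contrast is described for these genes without a test. The data are PAR-CLIP libraries, in which the uridine analogue 4-thiouridine is built into RNA, ultraviolet light crosslinks it to bound protein, and crosslinked bases read as T-to-C conversions.

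All libraries came from HCT116, a human colorectal carcinoma cell line, in a derivative that carries a tetracycline-controlled OsTIR1 gene, and every group, controls included, received 100 µM 4-thiouridine for 15 h. There were 5 conditions. Tunicamycin (TM), which blocks N-linked glycosylation and so loads the endoplasmic reticulum with unfolded protein, acted on the cells for 1 h or 4 h at 5 µg/mL, beside a DMSO vehicle of 4 h. Arsenite, an oxidative stressor, was given at 250 µM for 2 h, beside a PBS vehicle of 2 h. The protocol calls that compound arsenate, and it gives only 4 h for TM. The sample labels were followed for both. The protocol also lists alternative RNase amounts and does not assign them to libraries, and their part in cluster lengths and cluster reads was not tested. From each condition 3 libraries were immunoprecipitated with an antibody to IGF2BP3 and 1 with control IgG. The labels do not say whether the 3 came from separate cultures, so the tests measure the spread between libraries, which may be technical. Replicates 1 and 2 of the TM and DMSO groups carry 1 set number in the library names and replicate 3 carries another. All PBS and arsenite libraries carry a further set number. Differences between those groups and the TM and DMSO groups, and rankings over the 5 conditions, therefore cannot be told apart from the library set.

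The anti-IGF2BP3 libraries held between 130478 gene counts (PBS replicate 2) and 1568406 (TM 4 h replicate 3), and the IgG libraries between 5981 and 17503. Of 4 epithelial marker genes, EPCAM had binding clusters in 13 of 15 libraries, KRT8 in 14, CDH1 in 10 and KRT18 in 4, whereas PTPRC, VIM and PECAM1, which mark blood, mesenchymal and endothelial cells, had none in any library. The amount of each RNA in the cells was not analysed here, so a difference below is a difference in recovered RNA and does not separate binding from abundance.

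Tribbles proteins have the fold of a kinase but little or no catalytic activity. They act as scaffolds: a C-terminal tail recruits the ubiquitin ligase COP1, and the pseudokinase domain presents substrates such as C/EBP transcription factors to it, while other surfaces bind the kinases AKT and MEK. TRIB1 and TRIB2 are best known for the degradation of C/EBPα. TRIB3 is a stress-induced gene, a target of the transcription factors ATF4 and CHOP downstream of the kinase PERK, and it in turn binds ATF4 and CHOP.

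Stretches of TRIB3 and TRIB2 RNA within clusters are shown because they are where reads of these genes were recovered. The first TRIB3 window is the one held by most libraries. The next ones were taken a set distance apart, so they need not be the next most covered. In TRIB2 no base had a cluster in more than 1 library, and the window was chosen by reads. Clusters are the stretches of overlapping reads with conversions that the authors called in each library. The sequences come from the deposited cluster lists on the plus strand, which is the sense strand of all 3 genes, in GRCh38 (hg38) coordinates, and capitals mark any of 4 short motifs: CATC, the related CATA and CATT, and the letters GGAC. These letters were searched on the sense strand alone. The CAT forms are a short motif known for IGF2BP proteins, and GGAC is the core of the usual N6-methyladenosine site, a modification that IGF2BP proteins are known to read. The windows are 30 bases long: the TRIB3 windows lie at chr20:397049-397078 (clusters of 15 libraries hold it whole), chr20:396836-396865 (13 libraries) and chr20:396936-396965 (10 libraries), and the TRIB2 window lies at chr2:12741344-12741373 (1 library).
TRIB3, window 1: actgatgctggtgctcaggcacctctgtcc
TRIB3, window 2: aCATCtgctttgttccacacacatgcagtt
TRIB3, window 3: caatattccctgctcacagagatgacaaac
TRIB2, window 1: tttgtgtctcttaatcgctcacttcaactc
Only the second TRIB3 window holds a searched motif, a single CATC. Thymines, the bases that can carry 4-thiouridine, make up 8, 10 and 6 of the 30 bases of the TRIB3 windows and 13 of the TRIB2 window.

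TRIB1, which steers C/EBPα to COP1, was lowest after 4 h of TM and was otherwise within a narrow range, apart from 1 DMSO library. Levels are given in CPM, counts scaled to a common library size, with TMM scaling over the 15 anti-IGF2BP3 libraries; they depend on transcript length and are not compared between genes. In DMSO replicates 1, 2 and 3, TRIB1 stood at 1136, 1108 and 2044 CPM. After 1 h of TM it stood at 995, 864 and 1131 CPM, and after 4 h at 553, 414 and 403 CPM. All 3 TM 4 h libraries were below every other library, and DMSO replicate 3 was far above the other two of its group. In PBS the values were 1307, 1160 and 1169 CPM, and after arsenite 926, 988 and 1146 CPM. The highest arsenite library lay just under the lowest PBS library. In order of group means, TRIB1 rose from 457 ± 83.4 CPM (SD, n = 3) at TM 4 h through 996 ± 134 at TM 1 h, 1020 ± 113 in arsenite and 1212 ± 82.0 in PBS to 1430 ± 533 in DMSO. The ranges of neighbouring groups overlapped between TM 1 h and arsenite and between PBS and DMSO.

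TRIB2, the other C/EBPα-directed member, was recovered at a low level in every condition, with 3 to 35 counts per anti-IGF2BP3 library. It stood at 27.4, 32.0 and 26.6 CPM in DMSO, at 13.9, 20.0 and 24.0 CPM after 1 h of TM, and at 29.2, 16.1 and 19.3 CPM after 4 h. The TM 1 h libraries were all below the DMSO libraries, while the TM 4 h libraries overlapped both groups. In PBS it stood at 36.6, 31.8 and 30.6 CPM and after arsenite at 30.5, 25.1 and 33.0 CPM, with overlap. Every neighbouring pair of groups overlapped in the order of means, which ran from 19.3 ± 5.08 CPM (SD, n = 3) at TM 1 h to 33.0 ± 3.17 CPM in PBS. A single library can say little here: the 3 counts of TM 1 h replicate 1 have an exact 95% Poisson interval, for counting error only, of 2.71 to 38.5 CPM of its own total.

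TRIB3, the ATF4 and CHOP target, was highest after 4 h of TM, next highest after arsenite, and lowest after 1 h of TM. It stood at 200, 217 and 179 CPM in DMSO and at 130, 180 and 134 CPM after 1 h of TM. After 4 h it stood at 506, 1009 and 557 CPM. All TM 4 h libraries exceeded every other library, and replicate 2 was well above the other two. In PBS TRIB3 stood at 200, 262 and 296 CPM, and after arsenite at 312, 332 and 363 CPM. The 3 arsenite libraries were all above the 3 PBS libraries. Group means ran from 148 ± 27.8 CPM (SD, n = 3) at TM 1 h through 199 ± 19.0 in DMSO, 253 ± 48.6 in PBS and 336 ± 25.7 in arsenite to 691 ± 277 at TM 4 h. Neighbouring groups overlapped between TM 1 h and DMSO and between DMSO and PBS.

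**Figure D1:**
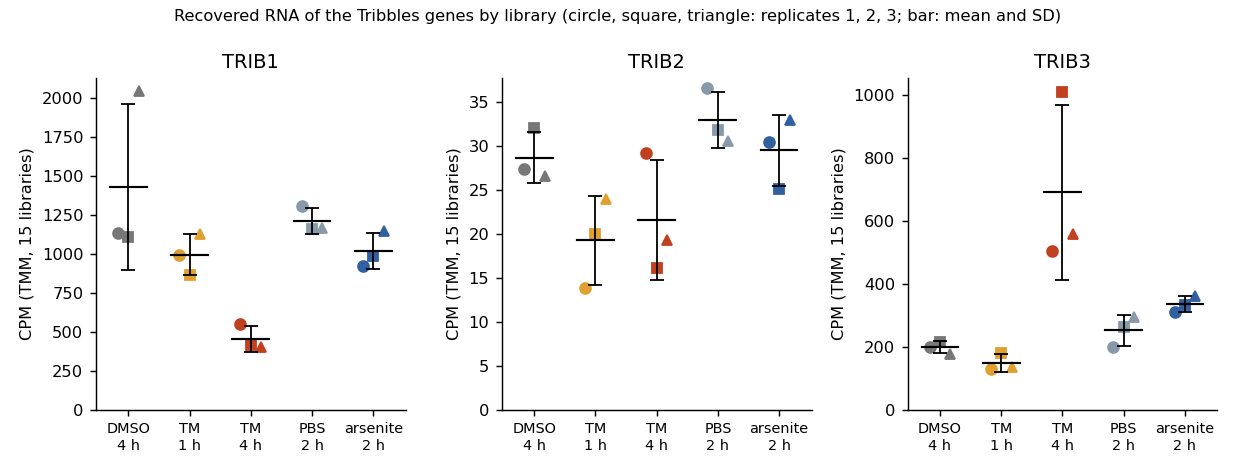
CPM of TRIB1, TRIB2 and TRIB3 in each anti-IGF2BP3 library, by condition, with the mean and SD of 3 libraries; each panel has its own axis from 0. TRIB1 is lowest and TRIB3 highest in the 3 TM 4 h libraries, and DMSO replicate 3 stands apart for TRIB1 at 2044 CPM.

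The contrast that chose the family, TM 4 h against DMSO, gave a log2 fold change of -1.72 for TRIB1, -0.51 for TRIB2 and 1.81 for TRIB3, as a description. The TRIB1 value was -1.34 without DMSO replicate 3 and -1.24 within the set that holds replicates 1 and 2. The TRIB3 value was 1.44 without TM 4 h replicate 2. The TM 4 h and DMSO libraries did not overlap for TRIB1 or TRIB3, as was so for 21.2% of 7558 genes. Between 1 h and 4 h of TM, the log2 change was -1.19 for TRIB1, -0.09 for TRIB2 and 2.23 for TRIB3.

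After 1 h of TM, TRIB1 was the member that passed the test, and it was lower. Its log2 fold change against DMSO was -0.53 ± 0.115 (SE, n = 3 per group, edgeR adjusted p = 0.0073), and 46 of 8343 genes (0.551%) were called in this comparison. The value rests on DMSO replicate 3: without it the change was -0.14 with an adjusted p of 0.704. The call was also lost without TM 1 h replicate 1 (adjusted p = 0.0610) or replicate 2 (0.240), within the set of replicates 1 and 2 (-0.29, 0.262), and in DESeq2 (-0.52, 0.9998), and over the 13 alternatives the adjusted p ran from 1.4e-08 to 0.9998. These DMSO libraries are also those of the contrast that chose the family, so the 1 h and 4 h values are not independent. TRIB2 changed by -0.42 ± 0.32 and TRIB3 by -0.42 ± 0.18 on the log2 scale, with edgeR adjusted p = 0.726 and 0.381. Of the 3 members, only the TRIB2 libraries did not overlap between TM 1 h and DMSO, which held for 15.7% of 7558 genes.

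Arsenite against PBS did not enter the choice of the family, and there TRIB1 fell while TRIB3 rose. The log2 fold change was -0.24 ± 0.073 for TRIB1 (SE, n = 3 per group, edgeR adjusted p = 0.0065) and 0.46 ± 0.12 for TRIB3 (edgeR adjusted p = 0.0017). TRIB2 changed by -0.15 ± 0.35 (edgeR adjusted p = 0.787). Calls were common in this comparison, in which 2310 of 6642 genes (34.8%) passed and the groups of 40.8% of 7558 genes did not overlap, so calls for 2 of 3 members are no result about the family as such. Both calls were lost without PBS replicate 1 (TRIB1 -0.17, adjusted p = 0.158; TRIB3 0.26, adjusted p = 0.190) and in DESeq2 (0.0873 and 0.0703). The TRIB1 call was also lost without arsenite replicate 1 (-0.17, 0.0894), with no filter on low counts (0.103) and with all 15 libraries in 1 fit (0.0984). Over 12 alternatives the adjusted p ran from 0.00048 to 0.158 for TRIB1 and from 0.00040 to 0.190 for TRIB3.

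**Figure D2:**
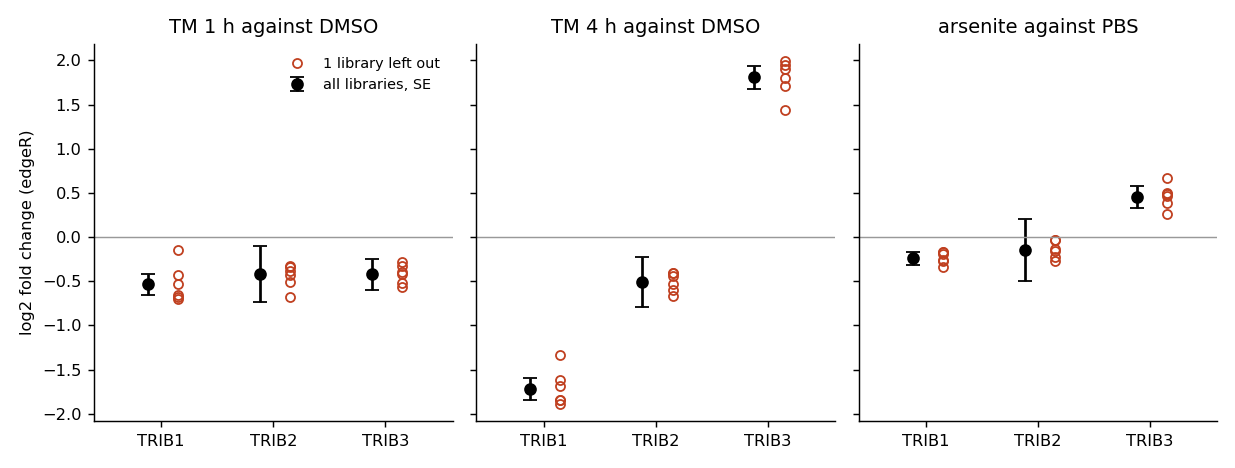
Log2 fold changes of the 3 genes from edgeR, with the SE, for TM 1 h and TM 4 h against DMSO and arsenite against PBS; open circles show the value with 1 library of the groups compared left out. The TM 4 h values chose the family and are shown as a description, and the TRIB1 value at TM 1 h moves from -0.53 to -0.14 without DMSO replicate 3.

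The IgG libraries give the background of the method. Summed over 5 libraries and 52256 counts they held 35 counts of TRIB1, 4 of TRIB2 and 13 of TRIB3, which is 670, 76.5 and 249 CPM of their total, without TMM. The 15 anti-IGF2BP3 libraries together held 1000, 25.1 and 343 CPM on the same scale. The exact 95% Poisson interval of the IgG value was 467 to 932 CPM for TRIB1, 20.9 to 196 for TRIB2 and 132 to 425 for TRIB3. With library totals as the scale, the anti-IGF2BP3 libraries differed from IgG by 0.57 ± 0.235 on the log2 scale for TRIB1, -1.49 ± 0.89 for TRIB2 and 0.43 ± 0.40 for TRIB3 (SE, edgeR adjusted p = 0.317, 0.564 and 0.762), while 8 of 7022 genes (0.114%) were called higher than IgG. With TMM scaling, which moved the median of all genes from 0.13 to 0.71, the TRIB1 difference was 1.15 with an edgeR adjusted p of 4.8e-05, and 522 genes were called higher. A gene-level excess of TRIB2 or TRIB3 over IgG was thus not detectable at this depth under either scale (edgeR adjusted p = 0.514 and 0.0810 with TMM).

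The IgG count of TRIB3 was also uneven between conditions. The TM 4 h IgG library held 8 of the 13 counts, which is 693 CPM of its total (exact 95% Poisson interval 299 to 1366), and the other 4 held 1 or 2 each. With 1 IgG library per condition, this has no replicate check, and its part in the anti-IGF2BP3 values was not tested.

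Clusters were found in all 3 genes, but unevenly. TRIB1 had 182 clusters with 9324 reads and TRIB3 had 65 with 3131 reads, and both had a cluster in all 15 anti-IGF2BP3 libraries. TRIB2 had 3 clusters with 16 reads, in DMSO replicates 2 and 3 only. All of them lay on the plus strand. In the IgG libraries there was 1 TRIB1 cluster, of 7 reads, and none of TRIB2 or TRIB3. Cluster lists were called per library, so a cluster can be missing from a shallow library.

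The clusters of TRIB1 and TRIB3 lay close to the 3′ end of each gene as RefSeq annotates it. TRIB1 spans chr8:125430358-125438403, TRIB2 chr2:12716936-12742734 and TRIB3 chr20:380760-397559. Which exon or untranslated region a cluster falls in was not analysed here. When overlapping clusters of the 15 libraries were merged, TRIB1 reads fell into 10 regions, of which the region of 1166 bases at chr8:125436128-125437293 held 68.4% of the reads and the region of 625 bases at chr8:125437435-125438059 held 25.9%. The latter ends 344 bases before the gene end. A further region of 291 bases, from 313 to 23 bases before the end, held 3.81% and had clusters in 12 libraries. TRIB3 reads fell into 6 regions, and a single region of 902 bases at chr20:396649-397550, ending 9 bases before the gene end, held 97.7% of them. Its first window above lies near the middle of this region. Bases covered by a cluster in all 15 libraries numbered 209 in TRIB1 and 71 in TRIB3. The 3 TRIB2 clusters lay between 1390 and 287 bases before the gene end.

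**Figure D3:**
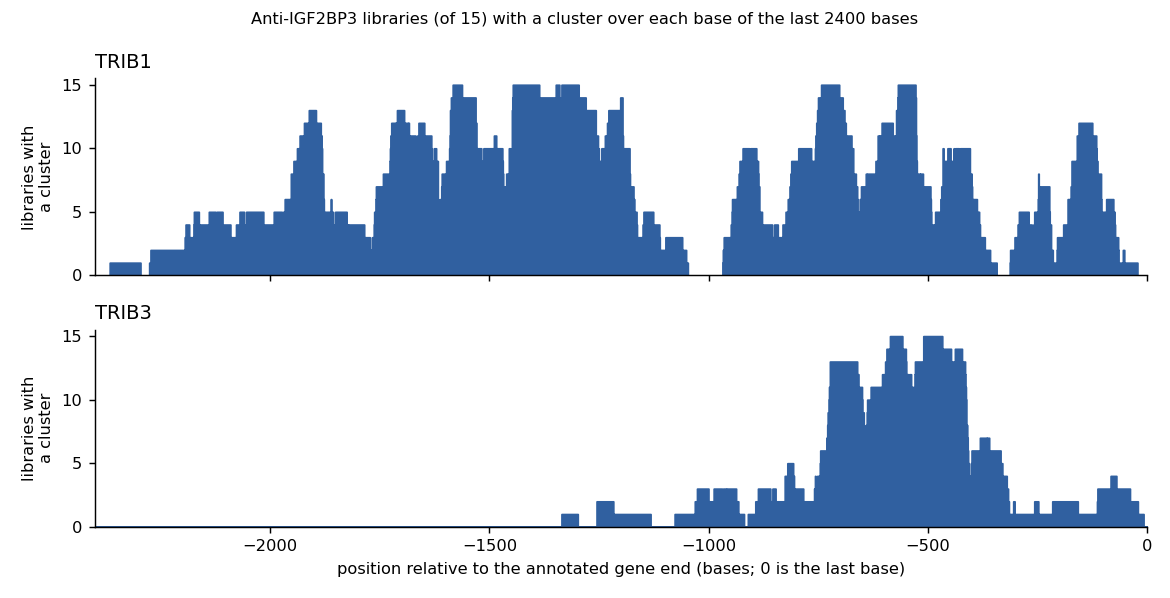
Number of the 15 anti-IGF2BP3 libraries with a cluster over each base, against the distance in bases to the annotated gene end, for TRIB1 and TRIB3. The 209 TRIB1 bases shared by 15 libraries lie between 1583 and 529 bases before its end. The 71 such bases of TRIB3 lie between 586 and 468 bases before its end.

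The TM 4 h values of TRIB1 and TRIB3 were spread over their regions in the same direction as the gene counts. These values come from the same libraries as the contrast that chose the family and are a description. In the larger TRIB1 region, DMSO libraries had 891 ± 329 cluster reads per library scaled in RPM to its gene counts, TM 1 h libraries 560 ± 116 and TM 4 h libraries 262 ± 23.4 (SD, n = 3). In the smaller one they were 324 ± 155, 195 ± 102 and 86.2 ± 20.0. The share of TRIB1 reads in the larger region was 69.0 ± 2.80% in DMSO and 71.3 ± 5.76% at TM 4 h, so the division of reads between regions moved by less than the spread. In the TRIB3 region DMSO libraries had 163 ± 20.0 RPM, TM 1 h libraries 114 ± 33.9 and TM 4 h libraries 600 ± 242. In PBS and arsenite, the larger TRIB1 region held 660 ± 104 and 619 ± 96.0 RPM, and the TRIB3 region held 188 ± 35.0 and 269 ± 30.9. The PBS and arsenite libraries overlapped in both TRIB1 regions. In the TRIB3 region they did not, by a small margin: 221 RPM in the highest PBS library and 234 in the lowest arsenite library. The share of all regions without overlap was not counted. In gene counts it was 40.8% of 7558 genes, so this is no trait particular to TRIB3. On cluster reads per gene, neither member passed the test in arsenite (TRIB1 -0.35, TRIB3 0.35 on the log2 scale, edgeR adjusted p = 0.188 and 0.469).

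**Figure D4:**
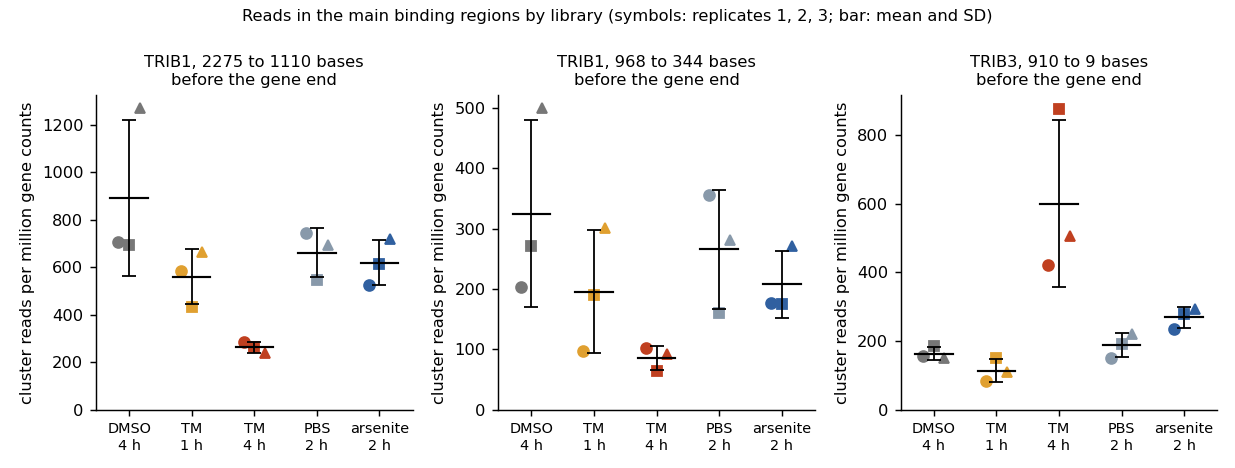
Cluster reads, scaled in RPM to each library's gene counts, in the main regions of TRIB1 and TRIB3 in each library, with the mean and SD of 3 libraries. In the larger TRIB1 region the TM 4 h libraries lie lowest, in the smaller one TM 4 h replicate 1 (103 RPM) lies above TM 1 h replicate 1 (96.5 RPM), and in TRIB3 the TM 4 h libraries lie highest, with TM 4 h replicate 2 at 875 RPM.

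Conversions were more frequent in TRIB3 clusters than in TRIB1 clusters in 15 of 15 libraries. The share of conversion events among conversion and non-conversion events was 8.0 ± 0.217% for TRIB1 and 10.6 ± 0.405% for TRIB3 in DMSO (SD, n = 3), beside 7.83 ± 0.144% over all clusters of those libraries. TRIB3 lay above its library's overall share in 15 of 15 libraries and TRIB1 lay below it in 11. At TM 1 h the shares were 7.82 ± 0.184% for TRIB1 and 10.5 ± 1.81% for TRIB3, and at TM 4 h 7.98 ± 0.258% and 10.8 ± 1.27%. None of these moved from DMSO by more than the spread between libraries. In arsenite the TRIB1 share was 8.37 ± 0.0852% against 7.45 ± 0.360% in PBS, a difference of 0.92 percentage points, and the TRIB3 share was 10.9 ± 0.595% against 9.60 ± 0.493%, a difference of 1.31. The arsenite libraries were above the PBS libraries for both genes, with an exact two-sided permutation p of 0.1 each (0.1 when adjusted over the 2 genes), the smallest that 3 against 3 libraries allow. Over all clusters the share moved in the same direction, from 8.01 ± 0.0969% in PBS to 8.70 ± 0.0974% in arsenite, by 0.684 percentage points. Its part in the differences of the 2 genes was not tested.

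The clusters of TRIB3 and TRIB1 also differed in their letters. Around the mode position that the cluster lists give for each cluster, windows of 30 bases were taken where they fitted within the cluster, once per position, which left 68899 windows over all genes. CATA, CATC or CATT was present in 40.8% of all windows, in 23 of 51 TRIB1 windows and in 1 of 15 TRIB3 windows. GGAC was present in 7.21% of all windows, in 5 of 51 TRIB1 windows and in 5 of 15 TRIB3 windows. Windows of 1 gene overlap one another, so these counts are a description and no test was made. The median thymine content was 26.7% in TRIB1 windows and 23.3% in TRIB3 windows, against 30% in all.

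Genes that act with the family, and genes of the PERK, ATF4 and CHOP arm, were read from clusters. The list of this arm holds both regulators and genes induced through them, such as CHAC1. Clusters were used since no table used here pairs the identifiers of the count table with symbols. The reads of all clusters over a gene's RefSeq span and strand were summed, scaled by TMM over these sums and written as cluster-read CPM. In the PERK, ATF4 and CHOP arm at TM 4 h, 3 of the 8 tested genes of this list of 14 were called higher than DMSO and none lower. Over all genes, 9 of 4909 (0.183%) were called higher. The list's median log2 change was 1.14 and that of all genes 0.02. This contrast chose TRIB3, and the list was chosen with earlier results of these data known. Its counts and p-values are therefore a description and no independent support. SESN2, a stress-induced brake on the growth kinase mTORC1, rose from 197, 231 and 202 cluster-read CPM in DMSO to 561, 751 and 488 (log2 change 1.5 ± 0.26, edgeR adjusted p = 0.0086). DDIT4, another such brake, had 0, 29 and 13 cluster reads in DMSO and 83, 201 and 434 at TM 4 h (edgeR adjusted p = 0.0063). DDIT3, the gene of CHOP itself, had no cluster in DMSO or TM 1 h and 37, 112 and 177 cluster reads at TM 4 h. An annotated gene overlaps it on the same strand. DDIT3 and DDIT4 passed the filter on low counts only through the TM 4 h libraries. DDIT4 had no cluster at TM 1 h either. Their calls among the 3 are therefore no independent evidence of a rise. CHAC1, described next, entered the test in the same way, and all of these genes count in the list's median.

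CHAC1, a glutathione-degrading enzyme and CHOP target, had 0, 8 and 0 cluster reads in DMSO and 10, 93 and 164 at TM 4 h, which did not pass (edgeR adjusted p = 0.99989). ATF4 itself stood at 579 ± 247 cluster-read CPM in DMSO and 690 ± 162 at TM 4 h (SD, n = 3), a difference smaller than the spread. The calls of this list depend on single libraries. Without TM 4 h replicate 2, without DMSO replicate 3 or within the set of replicates 1 and 2, 0 list genes were called. Without TM 4 h replicate 1 or 3, or DMSO replicate 2, 1 was.

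After arsenite, 2 genes of this list rose, of which SESN2 was also called at TM 4 h. ATF3, a transcription factor induced through ATF4, rose from 524, 0 and 413 cluster-read CPM in PBS to 3456, 3323 and 2157 (log2 change 2.96 ± 0.51, edgeR adjusted p = 0.0114). SESN2 rose from 158, 249 and 204 to 811, 664 and 592 cluster-read CPM (1.79 ± 0.28, edgeR adjusted p = 0.0081). They were the 2 called of 5 tested, beside 244 of 2822 genes (8.65%) called higher; the median log2 change was 1.79 in the list and 0.30 over all genes. ATF4 stood at 652, 158 and 649 cluster-read CPM in PBS and at 68.1, 167 and 204 after arsenite, and did not pass (log2 change -1.77, edgeR adjusted p = 0.0704). CHAC1 had no PBS cluster and 12, 20 and 35 cluster reads after arsenite, and DDIT3 had 1 arsenite cluster of 7 reads. Neither entered the test.

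**Figure D5:**
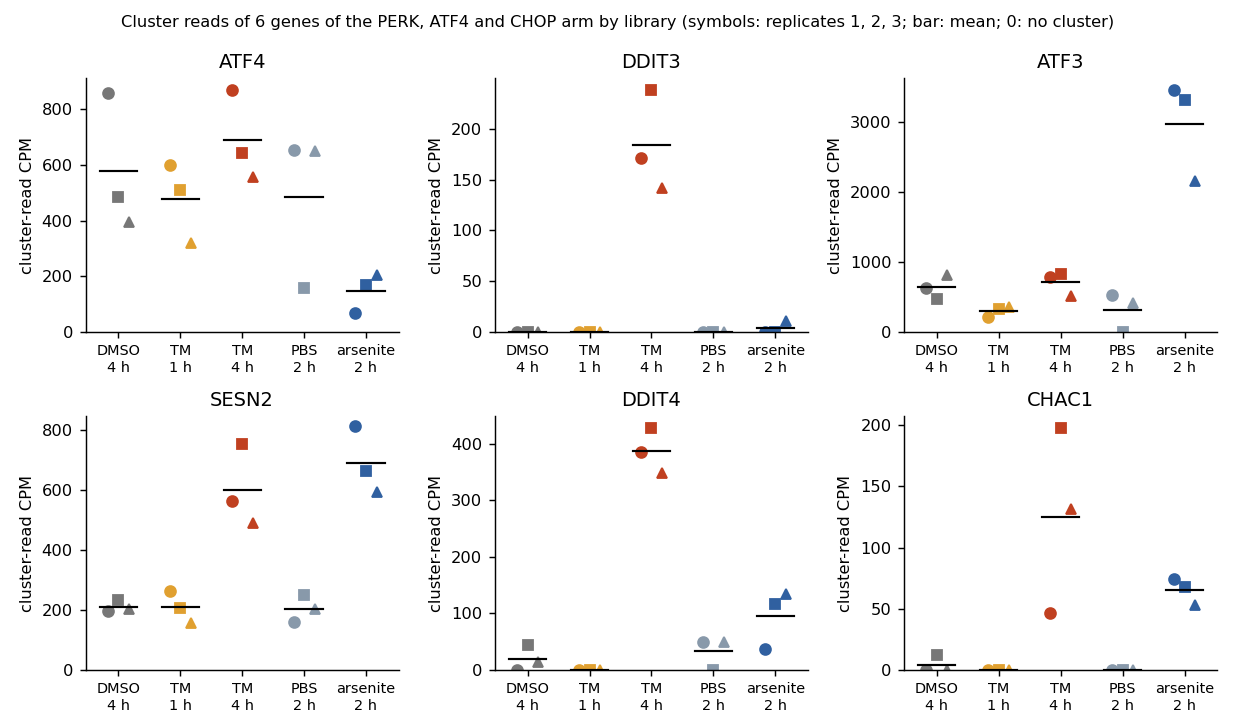
Cluster-read CPM of ATF4, DDIT3, ATF3, SESN2, DDIT4 and CHAC1 in each library, with the mean of 3 libraries as a bar; 0 means that no cluster was called. DDIT3 and DDIT4 are highest at TM 4 h, ATF3 is highest in arsenite, and SESN2 is high in both.

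No tested gene of the COP1 and C/EBP list or of the list of bound kinases was called at TM 4 h or in arsenite. Of the COP1 ligase and C/EBP list, 5 of 10 genes were tested at TM 4 h and 0 were called. COP1, the ligase, had clusters in 2 of 15 libraries, with 8 and 19 reads. CEBPA, the gene of C/EBPα, had no cluster in any of the 15. CEBPB, a C/EBP factor, had 6, 17 and 49 cluster reads in the TM 4 h libraries and at most 12 in any other library, and did not pass (edgeR adjusted p = 0.99989). Of the kinases bound by Tribbles proteins, 5 of 6 were tested and 0 called. AKT1 gave 38.6 ± 33.4 cluster-read CPM in DMSO against 50.6 ± 16.6 at TM 4 h, and MAP2K1, the gene of the kinase MEK1, gave 44.5 ± 38.8 against 74.3 ± 15.7 (SD, n = 3). In both lists 0 genes had an unadjusted edgeR p under 0.05 at TM 4 h, and DESeq2 called 0. Over all 4909 genes these numbers were 100 and 30. In arsenite, MAP2K4 alone of these lists was tested, and it was not called (0.47, edgeR adjusted p = 0.503).

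Of 9 tested genes of a list of 12 for the MAPK pathway and its feedback, 3 rose in arsenite, 0 fell and 6 did not pass, beside the 8.65% of all genes called higher. The median log2 change was 1.00 in the list and 0.30 over all genes. DUSP5, a phosphatase of ERK, rose from 455, 362 and 349 to 1214, 1246 and 810 cluster-read CPM (1.44 ± 0.24, edgeR adjusted p = 0.0099). SPRY4, an inhibitor of receptor-driven RAS and ERK signalling, rose from 435, 158 and 440 to 1022, 943 and 721 (1.22 ± 0.31, edgeR adjusted p = 0.0347). BRAF, a kinase upstream of MEK, had no cluster in PBS and 10, 17 and 49 cluster reads in arsenite. BRAF passed the filter on low counts only through the arsenite libraries, so its call among the 3 is no independent evidence of a rise. It was called in 4 of 11 alternatives. At TM 4 h 0 of 9 were called by edgeR, with 1 at an unadjusted p under 0.05 and 1 called lower by DESeq2. Over all 4909 genes, 100 had an unadjusted edgeR p under 0.05 and DESeq2 called 7 lower. Over all 4 lists in arsenite, 5 genes were called, against 0 without arsenite replicate 1, arsenite replicate 2 or PBS replicate 1, 1 without PBS replicate 3, 3 without arsenite replicate 3, and 8 without PBS replicate 2, which has the fewest counts.

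At TM 1 h, 0 genes of the 4 lists were called by edgeR, beside 0 of 4909 genes (0.0%). On the unadjusted edgeR p under 0.05 there were 2 in the PERK, ATF4 and CHOP list, 1 in the MAPK list and 0 in the others. Over all 4909 genes there were 98. One of the 2 was DDIT4, which had no cluster at TM 1 h and entered the test only through the TM 4 h libraries. DESeq2 called 1 list gene lower, beside 5 of 4909 genes. ATF3 stood at 299 ± 70.8 cluster-read CPM at TM 1 h against 638 ± 172 in DMSO (SD, n = 3, edgeR adjusted p = 0.99926).

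Likeness to the members was measured by Pearson's r of log2 CPM over the 15 libraries, which share their depth and conditions, among candidate genes averaging 50 counts or more per library, a limit that TRIB2 itself does not reach. TRIB1 and TRIB3 went in opposite directions across libraries (r = -0.77, Spearman's rho = -0.51), while TRIB1 and TRIB2 gave r = 0.50. These values include the libraries that chose the family and are given without a test. In the count table the genes most like TRIB3 were ENSG00000113739 (r = 0.96) and ENSG00000168209 (r = 0.95), against a median of -0.07 over 3337 genes. By cluster reads, where symbols are known, TRIB3 was most like HSPA5, the endoplasmic reticulum chaperone BiP (r = 0.90), followed by EIF4A1, a translation initiation helicase (0.85), and RACK1, a ribosome-bound scaffold (0.80). For HSPA5 the DMSO libraries gave 269 ± 67.9 cluster-read CPM, the TM 1 h libraries 322 ± 44.3 and the TM 4 h libraries 1616 ± 523, while PBS gave 466 ± 99.7 and arsenite 561 ± 164 (SD, n = 3). TRIB1 was most like TGOLN2, a trans-Golgi membrane protein (r = 0.79), PDE4B, a cAMP phosphodiesterase (0.77), and MALL (0.74). Their rho was 0.70, 0.46 and 0.52, and by rho the genes nearest to TRIB1 were TSC22D1 (0.79) and ERRFI1 (0.725). TGOLN2 stood at 1019 ± 84.8 cluster-read CPM in DMSO, 1027 ± 173 at TM 1 h, 714 ± 172 at TM 4 h, 1298 ± 30.2 in PBS and 939 ± 146 in arsenite.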

How the data were processed

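Per the submitters' processing notes, the tools were bcl2fastq 2.20.0.422, UMI-tools 1.1.1, Trimmomatic 0.30, Bowtie 0.12.7 and featureCounts 2.0.1, with GRCh38.p13 and hg38 as builds; their order and settings, and the program that called clusters, are not given in the sources used here. The authors deposited raw counts per gene, 1 column per library, and a cluster list per library with read counts and conversion and non-conversion event counts. All 20 columns were matched by name, with 0 left over. The cluster lists of the PBS and arsenite IgG libraries carry each other's names, and the attachment was followed. It gives the arsenite IgG library a TRIB1 cluster of 7 reads, though that library has 4 TRIB1 counts and the PBS IgG library 15. The attachment may therefore be the wrong one. IgG clusters are given above only over all IgG libraries together, which does not depend on it.

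Gene counts were tested with edgeR 4.0.16 (R 4.3.3): filterByExpr, TMM, quasi-likelihood test, Benjamini-Hochberg threshold 0.05, with 9 TM and DMSO libraries in 1 fit, 6 arsenite and PBS libraries in another, and all 20 against IgG with library totals. The SE is the log2 change divided by the square root of F. Shares were tested by exact permutation (SciPy 1.17.1). Scripts were tested on simulated data. No pair of same-numbered libraries deviated together (r from -0.08 to 0.06), so the numbers were not used as pairs.

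No table used here pairs identifiers with symbols, so the gene lists, planned for the counts, were read from cluster reads over RefSeq spans (GRCh38.p14; any overlap, same strand, introns included, overlapping genes counted in each), a change made after seeing the files. Of 518 clusters within RefSeq promoter windows, 518 had the identical sequence. Clusters are called per library, so these sums move with depth. Members and lists were chosen with earlier results of these data known. Named are the members, list genes that passed, DDIT3, ATF4, COP1, CEBPB, AKT1 and MAP2K1, and the 3 genes most like each member. CHAC1, CEBPA, MAP2K4 and ATF3 at TM 1 h were added after their values were seen. Of the count-table identifiers 2 are given for TRIB3 and none for the others. For TRIB2, no gene was named by cluster reads, since it had too few. Alternatives were DESeq2 1.42.0, other scalings, no filter, the replicate block, 1 fit of all 15 libraries, 1 library set, clusters of at least 10 reads, cluster midpoints and leaving out each library.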

Additional observations from a re-analysis of the deposited data

Results flagged for a closer look

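TRIB3 took opposite sides of its DMSO mean at 1 h and 4 h of TM. All 3 TM 1 h libraries lay below it and all 3 TM 4 h libraries above it, and the log2 change from 1 h to 4 h was 2.23. The difference was not tested, because TRIB3 was chosen by its TM 4 h value, and the TM 1 h libraries overlapped the DMSO libraries (180 CPM in the highest TM 1 h library and 179 CPM in the lowest DMSO library).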

How the results depend on the processing

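Of 353 settings, 298 were marked as the same. For tested values this meant called in both settings, or in neither whatever the sign, and for counts of called genes within 1.5 times. Some could not come out otherwise. The smallest possible permutation p of the conversion shares was 0.1 or 0.2, so none could gain a call. Cluster midpoints gave the same values as the main setting throughout. For untested fold changes and cluster values it meant a shift within the SD, and for likeness a close value. No called value changed sign, but the uncalled TRIB2 change from TM 1 h to 4 h (-0.09) turned to 0.25 within replicates 1 and 2 and ran from -0.24 to 0.17 with 1 library left out. The cause was not tested for those that changed, of which calls and counts of called genes are given here beside the main value. With clusters of at least 10 reads, the mean number of TRIB1 clusters per arsenite library went from 12.7 to 8.33. The gene most like TRIB1 in the count table had r = 0.84 and rho = 0.40. Other cluster values that moved are not listed.

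For TRIB1 in arsenite (-0.24), the log2 change lost its call with no filter (-0.19), in DESeq2 (-0.25) and with 15 libraries in 1 fit (-0.24), and ran from -0.34 to -0.17 with 1 library left out. TRIB3 (0.46) lost it in DESeq2 (0.43) and ran from 0.26 to 0.67. At TM 1 h, TRIB1 lost it in DESeq2 (-0.52) and within replicates 1 and 2 (-0.29), and ran from -0.71 to -0.14. Against IgG, TRIB1 gained a call with TMM (1.15).

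The genes called in arsenite fell from 2310 to 1233 in DESeq2. At TM 1 h, 46 became 6 in DESeq2, 16 within replicates 1 and 2 and 13 to 41 with 1 library left out. At TM 4 h, 426 became 151, 129 and 178 to 431. From TM 1 h to 4 h, 967 became 502, 488 and 523 to 859.

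Of list genes, the 5 called in arsenite became 3 under the replicate block and 0 to 8 with 1 library left out. At TM 1 h, 0 became 2 with no filter and 1 in DESeq2. At TM 4 h, 3 became 0 within replicates 1 and 2 and 0 to 3 with 1 library left out. From TM 1 h to 4 h, 3 became 5 with no filter, 0 within replicates 1 and 2 and 1 to 3 with 1 left out.

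The replicate block changed no call of a member: TRIB1 -0.23 and TRIB3 0.41 in arsenite, TRIB1 -0.53 at TM 1 h, and 2111, 43, 371 and 902 genes called. TRIB2 had 3 to 35 counts per library, and PBS replicate 2 had the fewest counts and clusters of the 15 anti-IGF2BP3 libraries.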
